A study of Mus musculus with 13 samples.

Results

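Metallothioneins and 2 genes of zinc handling were followed in the nuclei and cytoplasms of mouse oocytes with and without the RNA helicase MTR4. The members are 6 of the 23235 genes in the table: the metallothionein genes Mt1, Mt2, Mt3 and Mt4, the metal-sensing transcription factor gene Mtf1 and the zinc exporter gene Slc30a1. They were taken by symbol, and Mt1 was picked because it was high in both null columns, so its difference between null and WT is given as a description and carries no test. Polyadenylated RNA was copied from 10 nuclei or 10 cytoplasms per library, separated by micromanipulation. The MTR4-null groups are oocytes of day 21, with 2 libraries of nuclei and 2 of cytoplasms. The WT groups are nuclei of day 14 (2 libraries) and day 21 (3 libraries) and cytoplasms of day 14 and day 21 (2 libraries each). The labels used here give no strain, and they do not say how the MTR4 gene was removed. All groups are mouse oocytes, and the labels name no treatment.

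Metallothioneins are small cysteine-rich proteins that bind zinc and copper ions. In the mouse, Mt1 and Mt2 are made in most tissues, Mt3 mainly in the brain and Mt4 in stratified epithelia. When free zinc is high, the MTF1 protein binds short metal response elements in promoters and switches on Mt1, Mt2 and Slc30a1, whose product pumps zinc out of the cell. Mouse oocytes take up zinc while they mature and release part of it at fertilization. MTR4 is the helicase that hands nuclear RNA to the exosome, the main RNA-degrading complex of the nucleus.

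The table holds 1 value per gene for each of 4 columns: null nucleus, WT nucleus, null cytoplasm and WT cytoplasm. No value below has a replicate or an error, no p-value could be given, and differences could not be set against the spread between libraries. The WT columns name no day, so that genotype and age cannot be told apart. Read depth is unknown. The values carry the name FPKM, fragments scaled for transcript length and library size, but the columns are not on 1 scale: their totals were 1396110 in the null nucleus, 594034 in the WT nucleus, 3007240 in the null cytoplasm and 6637350 in the WT cytoplasm. Relative differences below are log2 differences of value plus 1 after each column was divided by its median ratio to the mean column. They set each gene against the median gene of its column. Of all genes, 14240 had at least 1 in at least 2 columns and were kept, all 6 members among them. Mt2 and Mt3 passed through the cytoplasms alone. A difference of at least 2-fold was counted as higher or lower. On this scale 3668 kept genes were higher and 2309 lower in null nuclei, against 6590 and 526 as deposited and 3024 and 3057 after quantile normalization. In the cytoplasm 3440 were higher and 2653 lower, against 2121 and 6225 as deposited. Over all kept genes the median difference was 0.06 in either compartment, against 0.91 in nuclei and -0.79 in cytoplasms as deposited. Every sign below thus holds relative to the median gene. Skiv2l2, which encodes MTR4, had 3.54 in the null nucleus and 13.3 in the WT nucleus, while the cytoplasms had 4.36 in null and 187 in WT.

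All 14 markers of growing oocytes, such as Zp3 and Gdf9, were above 0 in every column. Their sum held 2.42% of the total in the null nucleus and 2.89% in the WT nucleus, 3.71% in the null cytoplasm and 4.72% in the WT cytoplasm. The 17 markers of granulosa cells, which surround the oocyte in the follicle, summed to 0.00194% in the null nucleus and 0.0032% in the WT nucleus, 0.0101% in the null cytoplasm and 0.0074% in the WT cytoplasm. Listed at 0 were Inha, Foxl2, Fst and Gja1 in the null nucleus, Amh, Krt18 and Amhr2 in the WT nucleus and Krt18 in the WT cytoplasm. In null cytoplasms 5 of the 15 kept granulosa markers were higher, beside 24.2% of all kept genes, and 1 lower, beside 18.6%. Wt1 had 16.4 in the null cytoplasm and 1.41 in the WT cytoplasm, and Hsd3b1 had 42.0 and 15.3. The marker with the highest value, Inha, had 86.8 in the null cytoplasm and 253 in the WT cytoplasm, within 2-fold on the relative scale. Cyp19a1, the lower one, had 15.4 in null and 78.0 in WT. Foxl2 and Krt18 did not pass the filter. Foxl2 had 7.10 in the null cytoplasm and 0.117 in the WT cytoplasm, and Krt18 had 2.02 in the null cytoplasm. In null nuclei 2 were higher, beside 25.8%, and 3 lower, beside 16.2%. As deposited 5 were higher in cytoplasms, beside 14.9% of all kept genes, and 3 lower, beside 43.7%. Nuclei had 3 higher on that scale, beside 46.3%, and 2 lower, beside 3.69%. Their part in the values below was not tested. In such pooled RNA, fewer cells of a type and less RNA per cell cannot be told apart.

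Mt1 had a value of 2208 in the null nucleus and 2.82 in the WT nucleus. Cytoplasmic Mt1 stood at 3973 in null and 45.1 in WT. Both null values were thus far above both WT values. Mt1 ranked 93 among all genes in the null nucleus and 8591 in the WT nucleus, with 95 in null cytoplasms and 7721 in WT cytoplasms, an order within a column that no column scale can alter. The relative differences were 8.38 (nucleus) and 7.26 (cytoplasm), places 13 and 31 from the top of the kept genes. Under 7 other settings the nuclear value ran from 7.84 to 9.18 and the cytoplasmic value from 6.43 to 7.41.

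Mt2, the gene beside Mt1 and the one most often induced together with it, did not show such values. It was listed at 0 in the null nucleus and had 0.705 in the WT nucleus, while the cytoplasms had 4.12 in null and 3.39 in WT. Both compartments of null oocytes thus held little Mt2 signal where Mt1 was among the most abundant genes. Within the null cytoplasm Mt1 was 964-fold Mt2, against 13.3-fold within the WT cytoplasm. No fold is given for the null nucleus, where Mt2 is at 0. The relative difference of Mt2 in the cytoplasm was 0.71, below 2-fold, and under other settings it ran from 0.22 to 1.11.

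Mt3 was low throughout. It was listed at 0 in the null nucleus and had 0.347 in the WT nucleus, and the cytoplasms had 1.45 in null and 5.19 in WT. An exact 0 is not taken here as absence, since 32 of the 5805 genes with at least 100 in the WT cytoplasm were also at 0 in the null nucleus, against 16 in the WT nucleus. Mt4 was the highest metallothionein in both WT columns, and it had 35.9 in the null nucleus and 12.6 in the WT nucleus. Its cytoplasmic values were 46.5 in null and 188 in WT. Mt4 was thus lower in the null cytoplasm, by 1.08 on the relative log2 scale, and in the nucleus the relative difference was 0.41. The cytoplasmic difference kept its sign under 7 other settings and was at least 2-fold in 5 of them.

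**Figure D1:**
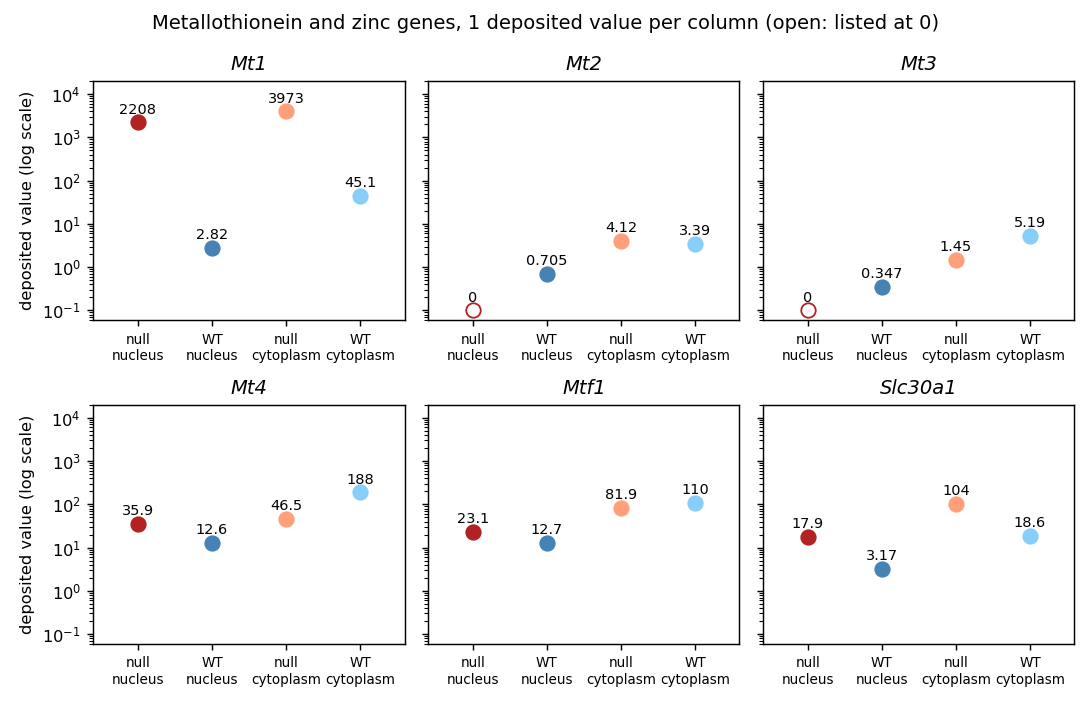
Deposited values of the 6 members in the 4 columns, 1 point per column on a log axis, with open points for values listed at 0. Mt1 stands at 2208 and 3973 in the null columns, against 2.82 and 45.1 in WT, while Mt2 and Mt3 stay at or below 5.19 in every column.

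The make-up of the metallothionein signal can be read within a column, without regard to its scale. Mt1 held 98.4% of the summed Mt1 to Mt4 values in the null nucleus and 17.1% in the WT nucleus. In the cytoplasm it held 98.7% in null and 18.7% in WT. Mt4 held 1.6% in the null nucleus and 76.5% in the WT nucleus. Its cytoplasmic shares were 1.16% in null and 77.8% in WT. Both WT compartments thus had nearly the same make-up, as had both null compartments. The 4 genes together were 0.161% of the column total in the null nucleus and 0.00277% in the WT nucleus. In the cytoplasm they were 0.134% in null and 0.00364% in WT.

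**Figure D2:**
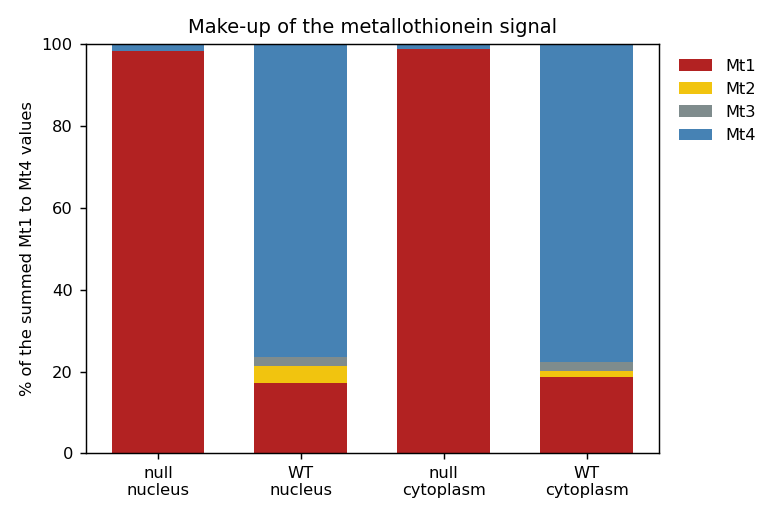
Stacked bars of the percent that each metallothionein holds of the summed Mt1 to Mt4 values in each column. Mt1 fills 98.4% and 98.7% of the null bars, and Mt4 fills 76.5% and 77.8% of the WT bars.

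The 4 metallothionein genes lie side by side on mouse chromosome 8 in the order Mt4, Mt3, Mt2, Mt1. Measured genes near the cluster were set beside it. Nudt21, a subunit of a factor in messenger RNA 3' end formation, had 85.1 in the null nucleus and 18.6 in the WT nucleus, while the cytoplasms had 457 in null and 418 in WT (relative differences 1.09 and 1.03). The next genes towards the cluster, Ogfod1 and Bbs2, had nuclear relative differences of 0.08 and -0.51 and cytoplasmic ones of 0.46 and 0.04. On the other side Nup93, a nuclear pore gene, had -0.31 and -0.91, and Slc12a3 had at most 0.0999 in any column. As deposited, both signs of Bbs2, the nuclear sign of Nup93 and the cytoplasmic sign of Ogfod1 flip. None of these neighbours had a difference near that of Mt1.

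**Figure D3:**
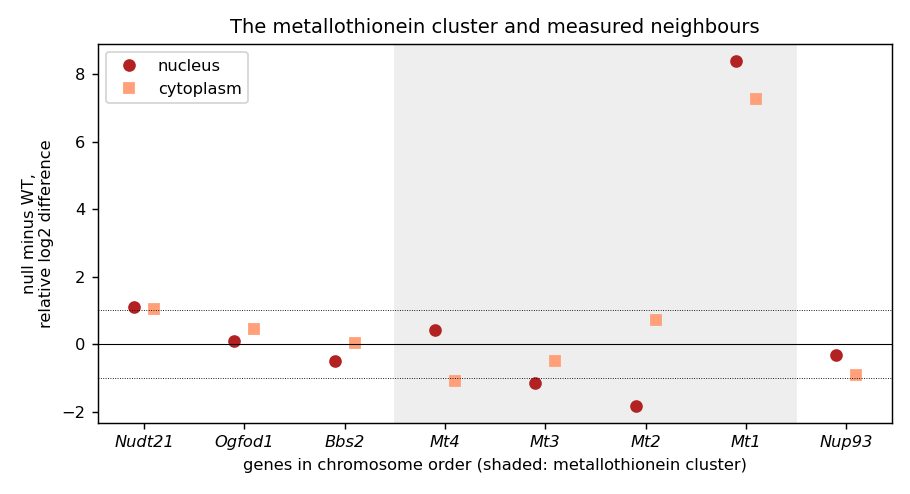
Relative log2 difference, null minus WT, for the metallothionein genes (shaded) and measured neighbours in chromosome order, with circles for the nucleus and squares for the cytoplasm. Mt1 stands at 8.38 and 7.26, while Mt2 next to it stands at -1.82, through a null value of 0, and 0.71, and Nup93 beyond it at -0.31 and -0.91.

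Sequences of the transcripts bear on how well reads can be placed. Of 1267 stretches of 25 bases in the GENCODE M21 transcripts of Mt1, 3 occurred in another gene, all of them in Mt3, and Mt1 shared none with Mt2 or Mt4. Of 579 such stretches of Mt2, 367 (63.4%) occurred elsewhere, 354 of them in Gm45774, which lies on the opposite strand over 749 bases. Smart-seq2 libraries do not mark the strand, so reads from the stretches shared by Mt2 and Gm45774 cannot be told apart. Gm45774 has no value of its own here. The Mt2 value may hold some of its reads, and their part was not tested. The transcripts of Mt1 are 549 to 1085 bases long and those of Mt2 388 to 511 bases. Values per kilobase of such short transcripts rest on few read positions.

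The start regions of Mt1, Mt2 and Slc30a1 are shown because these are the textbook targets of MTF1 and their values differed from each other. Each window runs from 250 bases before to 50 bases after the start in RefSeq, build GRCm38.p6, 5' to 3' on the gene's strand. Capitals mark the core of the metal response element, searched as TGCACNC and TGCGCNC on both strands. On the other strand these read GNGTGCA and GNGCGCA. The Mt1 window is chr8:94178839-94179138 (+), the Mt2 window chr8:94172368-94172667 (+) and the Slc30a1 window chr1:191906531-191906830 (+).
Mt1: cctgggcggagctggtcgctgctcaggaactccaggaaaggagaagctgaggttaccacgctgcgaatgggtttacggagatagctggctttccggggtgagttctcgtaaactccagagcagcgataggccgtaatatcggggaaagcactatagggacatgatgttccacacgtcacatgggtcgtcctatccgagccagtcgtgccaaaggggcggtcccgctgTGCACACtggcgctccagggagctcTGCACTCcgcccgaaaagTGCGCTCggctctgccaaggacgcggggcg
Mt2: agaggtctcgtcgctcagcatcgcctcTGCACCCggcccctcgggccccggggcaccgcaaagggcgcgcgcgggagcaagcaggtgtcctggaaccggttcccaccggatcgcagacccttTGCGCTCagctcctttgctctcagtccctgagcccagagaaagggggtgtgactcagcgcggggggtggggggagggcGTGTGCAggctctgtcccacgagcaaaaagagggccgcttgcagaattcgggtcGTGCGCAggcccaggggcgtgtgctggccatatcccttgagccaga
Slc30a1: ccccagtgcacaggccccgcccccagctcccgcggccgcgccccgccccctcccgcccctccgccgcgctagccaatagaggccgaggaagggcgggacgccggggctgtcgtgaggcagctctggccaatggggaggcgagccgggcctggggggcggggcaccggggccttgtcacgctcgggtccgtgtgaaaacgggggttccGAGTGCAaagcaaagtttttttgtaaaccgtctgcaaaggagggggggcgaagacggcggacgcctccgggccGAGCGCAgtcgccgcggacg

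The Mt1 window held 3 cores, all on the gene's strand, whose first bases lie at -23, 3 and 21 from the start. The Mt2 window held 4, at -223 and -128 on the gene's strand and at -50 and 5 on the other. The Slc30a1 window held 2, at -43 and 31, both on the other strand. Mt3 and Mt4 held 1 each, and Mtf1 held none of these letters. Whether these cores have a part in the values of any member was not tested. Among 32851 windows of the same length in the table, 25.7% held at least 1 core, 7.11% at least 2, 1.97% at least 3 and 0.517% at least 4. Among windows with at least 60% G and C, as the 3 printed have, the shares were 45.2%, 16.7%, 5.04% and 1.31%. A match is a run of letters and not a shown binding site, and no binding was measured. GENCODE lists 3 transcripts of Mt1, and starts other than the one in the RefSeq table were not searched.

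Mtf1 had 23.1 in the null nucleus and 12.7 in the WT nucleus, with 81.9 in null cytoplasms and 110 in WT cytoplasms. Its relative differences were -0.22 and 0.47, below 2-fold, and both change sign on the scale as deposited, to 0.82 and -0.42. Within a column, Mt1 was 95.6 times Mtf1 in the null nucleus and 0.223 times in the WT nucleus. In cytoplasms it was 48.5 times Mtf1 in null and 0.41 times in WT. On the opposite strand Mtf1 overlaps 1110065P20Rik over 721 bases, which had 66.7 in the null nucleus and 12.7 in the WT nucleus, while the cytoplasms had 201 in null and 209 in WT. The part of its reads in the Mtf1 value was not tested.

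Slc30a1 was higher in null oocytes in both compartments. It had 17.9 in the null nucleus and 3.17 in the WT nucleus, with 104 in null cytoplasms and 18.6 in WT cytoplasms. The relative differences were 1.33 (nucleus) and 3.17 (cytoplasm), and 7 of 7 other settings kept each of them at 2-fold or more. On ranks among all genes, Slc30a1 stood at 6161 in the null nucleus and 8326 in the WT nucleus, and at 4195 in the null cytoplasm and 9778 in the WT cytoplasm. Within a column Slc30a1 was 0.776 times Mtf1 in the null nucleus and 0.25 times in the WT nucleus. In cytoplasms it was 1.27 times Mtf1 in null and 0.169 times in WT. A gene on its opposite strand, 1700034H15Rik, shares 761 bases with it and was also higher in null. That gene had 107 in the null nucleus and 3.97 in the WT nucleus, while the cytoplasms had 16.5 in null and 4.18 in WT. It holds 445 of the 5241 stretches of Slc30a1, and its part in the Slc30a1 value was not tested. In the null nucleus the deposited value of 1700034H15Rik was 107 against 17.9 for Slc30a1, and in the null cytoplasm it was 16.5 against 104.

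Counted over the members, null nuclei had 2 of 6 higher (Mt1 and Slc30a1), beside 25.8% of all kept genes, and 2 of 6 lower (Mt2 and Mt3), beside 16.2%. The lower members are those listed at 0 in null, so that the added 1 sets the size of their difference. In the cytoplasm 2 of 6 were higher, the same members, beside 24.2% of all kept genes, and 1 of 6 lower (Mt4), beside 18.6%. As deposited the backgrounds were 46.3% higher and 3.69% lower for nuclei, with 14.9% higher and 43.7% lower for cytoplasms. On that scale 3 members were higher and 0 lower in the nucleus (Mt4 joining), with 2 higher and 2 lower in the cytoplasm (Mt3 joining Mt4). Nothing is read from these counts, since Mt1 was chosen on these comparisons.

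**Figure D4:**
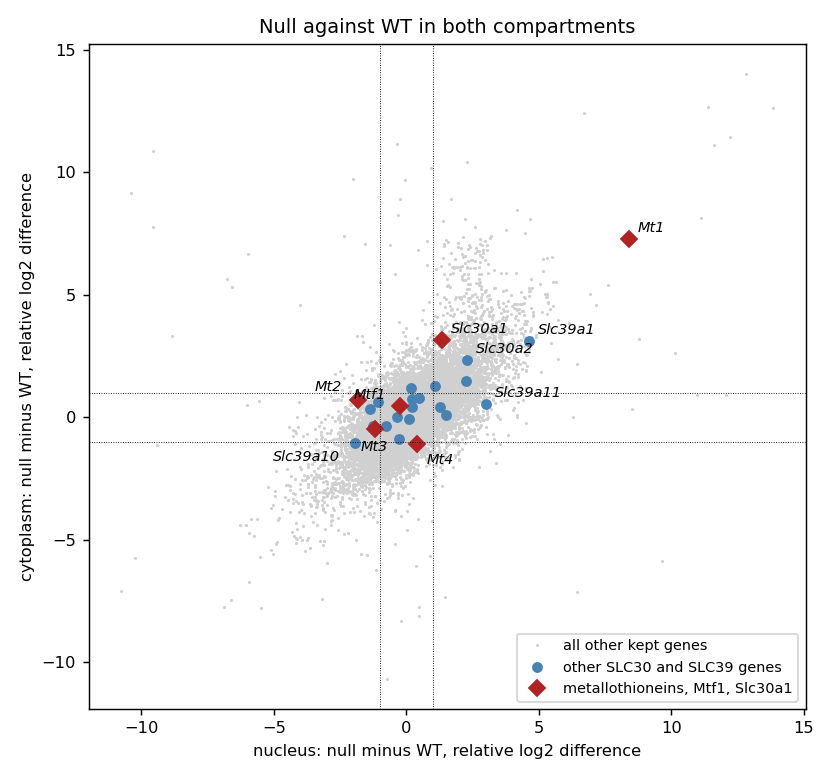
Relative log2 difference, null minus WT, in the nucleus (x axis) and the cytoplasm (y axis) for all kept genes (grey), the members (diamonds) and the other zinc transporter genes (circles), with dotted lines at 2-fold. Mt1 lies at 8.38 and 7.26, Slc30a1 at 1.33 and 3.17 and Slc39a1 at 4.63 and 3.10, and Mt2, Mt3, Mt4 and Mtf1 lie near the body of the genes.

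The nucleus and the cytoplasm of 1 genotype were compared to see where the RNA of each member was found. In null oocytes the relative difference of nucleus and cytoplasm was 0.79 for Mt1, and in WT oocytes it was -0.33. Both are below 2-fold, and the value in null turned to -0.85 as deposited. In null oocytes Mt4 was 1.23 higher in the nucleus, beside 12.4% of kept genes that were higher, and Mt2 was lower by its nuclear 0, beside 8.83%. For Mt4 the sign turned to -0.37 as deposited. In WT oocytes 0 of 6 members were 2-fold higher or lower in the nucleus, beside 9.73% and 7.46%. Slc30a1 had -0.88 in null and 0.96 in WT, and as deposited both were below 0. Of the 20 kept zinc transporters described below, 0 were higher and 2 lower in null nuclei than in null cytoplasms, beside 12.4% and 8.83%. In WT 0 of these transporters were higher and 5 lower, beside 9.73% and 7.46%. Those 5 had at most 0.800 in the WT nucleus. With 5 added before log2, 1 transporter was called in WT and 0 in null. As deposited 0 members were higher and 4 lower in null, beside 2.91% and 71.9% of kept genes, and 0 were higher and 6 lower in WT, beside 1.74% and 91.2%. As deposited the median gene of this comparison lay at -1.48 in null and -3.27 in WT, and 415 genes were higher and 10235 lower in null, and 248 and 12990 in WT. With totals made equal, 902 were higher and 2856 lower in null. These comparisons share columns with those of null and WT and are no separate support for them.

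The wider set of zinc transporters was described next. As families, SLC30 proteins move zinc out of the cytosol and SLC39 proteins move it in, though some SLC30 members are not zinc transporters. Genes are called exporters or importers below by family alone. Of the 24 genes, 20 were kept. In null nuclei 8 of the 20 were higher, beside 25.8% of all kept genes, and 4 were lower, beside 16.2%. Among the higher ones, Slc30a6, Slc30a7, Slc39a1, Slc39a5 and Slc39a11 had at most 0.800 in the WT nucleus. Among the lower ones, Slc39a4 was listed at 0 in the null nucleus. In null cytoplasms 6 were higher, beside 24.2%, and 1 was lower, beside 18.6%. The median relative difference of the 20 was 0.21 for nuclei and 0.50 for cytoplasms, against 0.06 over all kept genes in each. As deposited 9 were higher, beside 46.3% of all kept genes, and 0 lower, beside 3.69%, in the nucleus. In the cytoplasm 3 were higher on that scale, beside 14.9%, and 4 lower, beside 43.7%.

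Of the 8 kept exporters, those higher in both compartments of null oocytes were Slc30a1, Slc30a2, Slc30a6 and Slc30a9. Over all kept genes 16.4% were higher in both. Slc30a2, which loads zinc into vesicles, had 16.4 in the null nucleus and 1.36 in the WT nucleus, with 43.3 in null cytoplasms and 13.1 in WT cytoplasms (relative 2.29 and 2.35). Slc30a6 had 9.57 in the null nucleus and 0.729 in the WT nucleus. Cytoplasmic values were 48.1 in null and 29.9 in WT (relative 2.24 in nuclei and 1.49 in cytoplasms). Slc30a9 had relative differences of 1.10 and 1.27, each of at least 2-fold in 4 of 7 other settings. As deposited the cytoplasmic differences of Slc30a6 and Slc30a9 were 0.67 and 0.45, below 2-fold. Slc30a7 was 1.28 higher in null nuclei, at 1.31 in null and 0.0887 in WT, and fell short of 2-fold in 3 of 7 other settings. Lower in null nuclei were Slc30a5 (17.0 in null and 19.2 in WT, relative -1.24) and Slc30a4 (5.98 and 6.20, relative -1.07), which as deposited differed by -0.17 and -0.04 only. The highest exporter in every column was Slc30a3, known for loading zinc into synaptic vesicles of the brain. It had 392 in the null nucleus and 222 in the WT nucleus, while the cytoplasms had 1140 in null and 3885 in WT, with relative differences of -0.28, which was 0.81 as deposited, and -0.86. Slc30a3 held 83.2% of the summed exporter values in the null nucleus and 87.1% in the WT nucleus, with 76.4% in null cytoplasms and 92.6% in WT cytoplasms. Slc30a1 was the second exporter by value in both null columns, against the fourth in the WT nucleus and the sixth in the WT cytoplasm.

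Among the importers Slc39a1, a zinc importer of the plasma membrane, stood out by size. It had 56.6 in the null nucleus and 0.800 in the WT nucleus. Cytoplasmic values were 205 in null and 41.8 in WT, and the relative differences were 4.63 for nuclei and 3.10 for cytoplasms. Its share of the summed importer values was 26.9% in the null nucleus and 0.581% in the WT nucleus, while the cytoplasms had 25.4% in null and 2.8% in WT. Slc39a11 was 2.99 higher in null nuclei (7.27 in null and 0.186 in WT), with 0.55 in the cytoplasm (-0.26 as deposited), and Slc39a5 was higher in null nuclei, at 1.71 in null and 0.102 in WT, a call lost in 3 of 7 other settings. Slc39a7, an importer of the endoplasmic reticulum, was 1.19 higher in null cytoplasms (74.2 in null and 59.0 in WT), though 2 of 7 other settings, among them the scale as deposited at 0.33, left it below 2-fold. Slc39a4 was listed at 0 in the null nucleus and had 0.437 in the WT nucleus.

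Slc39a6 and Slc39a10 encode importers linked to zinc uptake in mouse oocytes, and they were the highest importers in WT. Slc39a10 had 30.5 in the null nucleus and 54.7 in the WT nucleus, with 141 in null cytoplasms and 546 in WT cytoplasms. Its relative log2 differences were -1.92 in nuclei and -1.04 in cytoplasms. The cytoplasmic value fell short of 2-fold in 3 of 7 other settings. Slc39a6 had 85.1 in the null nucleus and 67.5 in the WT nucleus. Cytoplasmic values were 299 in null and 714 in WT. The relative differences were -0.75 for nuclei, 0.33 as deposited, and -0.35 for cytoplasms. Slc39a10 held 14.5% of the importer sum in the null nucleus and 39.8% in the WT nucleus, while the cytoplasms had 17.4% in null and 36.5% in WT. Slc39a1 was above Slc39a10 in both null columns and below it in both WT columns.

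**Figure D5:**
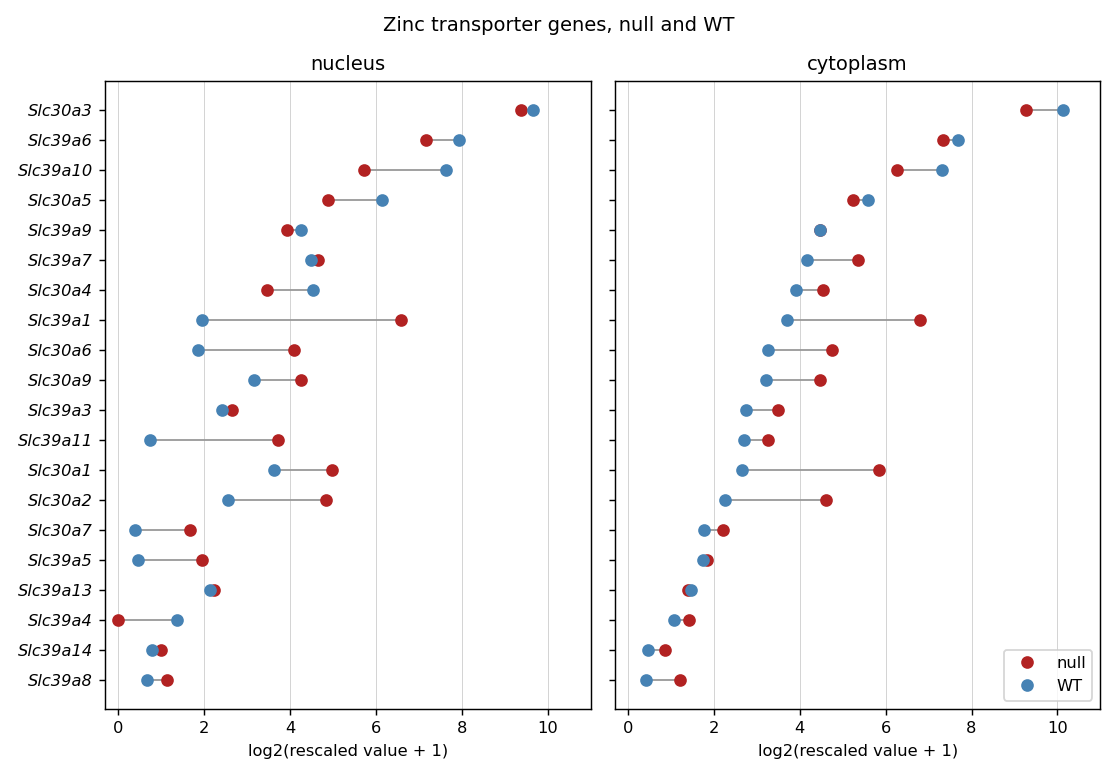
Levels of the 20 kept zinc transporter genes as log2 of the rescaled value plus 1, null (red) and WT (blue), in the nucleus and the cytoplasm, sorted by the WT cytoplasm. Slc39a1, Slc30a1 and Slc30a2 lie to the right in null in both panels, and Slc39a10 lies to the left.

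The shares of higher and lower genes differed between 2 ranges of WT level, and the transporters are set beside genes of like level. Other levels were not counted. The level bounds were chosen after the values were seen. The WT cytoplasm value enters the cytoplasmic difference itself, which by construction adds to the contrast between the ranges. Of 3419 kept genes with a WT cytoplasm value from 10 to below 50, a range that holds Mt1, Slc30a1, Slc30a2 and Slc39a1, 35.0% were higher in null nuclei and 33.7% in null cytoplasms, while 15.1% and 16.4% were lower. Of 980 genes from 500 to below 1000, the range of Slc39a6 and Slc39a10, 24.7% were lower in null nuclei and 36.5% in null cytoplasms, while 3.98% and 2.86% were higher. The lower range also holds Slc30a6 and Slc30a9, higher in both, Slc39a11, higher in nuclei only by the 2-fold rule, Slc39a3, within 2-fold in both, and Slc30a4, lower in nuclei. Slc39a1 stood at places 64 and 536 and Slc30a1 at places 2812 and 514 from the top of all kept genes, in nucleus and cytoplasm.

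Other genes reported in mouse to answer to MTF1 were counted too. Of the 6 listed (Slc39a10, Sepw1, Gclc, Ndrg1, Csrp1 and Slc40a1), 4 were kept. In null nuclei 0 were higher, beside 25.8% of all kept genes, and 2 lower, beside 16.2%. In null cytoplasms 1 was higher, beside 24.2%, and 3 were lower, beside 18.6%. As deposited 0 were higher in nuclei, beside 46.3% of all kept genes, and 0 lower, beside 3.69%. Cytoplasms had 0 higher on that scale, beside 14.9%, and 3 lower, beside 43.7%. Slc40a1, the iron exporter gene, did not pass the filter and is not in these counts. It was listed at 0 in the null nucleus and had 0.0912 in the WT nucleus, while the cytoplasms had 5.64 in null and 0.273 in WT, a deposited fold of 20.6. Ndrg1, also not kept, had 0.54 in the null cytoplasm and 0.99 in the WT cytoplasm. Slc39a10, which MTF1 is reported to repress, was lower in both compartments, as was Csrp1, and Sepw1 was lower in cytoplasms. The counts were not split by reported direction, and a part of MTF1 in these values was not tested. Sepw1, a selenoprotein gene, had 682 in the null nucleus and 449 in the WT nucleus, with 1227 in null cytoplasms and 8544 in WT cytoplasms, and its cytoplasmic relative difference was -1.89. Csrp1 had -1.18 in nuclei and -2.03 in cytoplasms. Gclc, which makes the precursor of glutathione, had 36.9 in the null cytoplasm and 29.1 in the WT cytoplasm, a relative difference of 1.16 that was 0.34 as deposited.

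Gene lists linked to copper, oxidative stress, heat shock and glucocorticoids were also counted. The shares over all kept genes were the same (25.8% higher and 16.2% lower in nuclei, 24.2% higher and 18.6% lower in cytoplasms). The copper list holds copper transporters and chaperones, and the oxidative stress list includes antioxidant enzymes. Such lists do not measure a signal, and whether any signal was at work was not tested. Of 9 kept copper genes, 1 was higher and 1 lower in null nuclei (Sco1 at 1.47 and the copper importer Slc31a1 at -2.46), and 1 was higher and 3 lower in null cytoplasms, with Ccs at -1.53 and Atp7a at 1.37. Of 12 kept genes of the oxidative stress response, 1 was higher and 1 lower in nuclei (Gpx1 at 2.03 and Hmox1 at -1.31), and 2 were higher and 1 lower in cytoplasms, with Gsr at 1.38 and Gclc at 1.16. Heat-shock genes counted 8, of which 1 was higher and 1 lower in nuclei (Hsph1 at 1.02 and Hspa8 at -1.39), and 1 was higher and 2 lower in cytoplasms, with Hspa8 at -2.37 and Dnajb1 at -1.38. Of 6 kept glucocorticoid targets, 0 were higher and 2 lower in nuclei (Dusp1 at -1.33 and Fkbp5 at -1.28), and 0 were higher and 1 lower in cytoplasms (Dusp1 at -2.09, with Per1 next at 0.47, below 0 as deposited). As deposited the shares over all kept genes were 46.3% higher and 3.69% lower in nuclei, with 14.9% and 43.7% in cytoplasms. Beside these, copper genes had 3 higher and 1 lower in nuclei, with 0 and 7 in cytoplasms. On the same scale oxidative stress genes had 5 higher and 0 lower in nuclei, with 0 and 4 in cytoplasms. Heat-shock genes had 2 higher and 0 lower in nuclei, with 0 and 2 in cytoplasms, and glucocorticoid targets had 1 higher and 0 lower, with 0 and 3. Zbtb16, a glucocorticoid target that did not pass the filter, had 2.17 in the null cytoplasm and 0.133 in the WT cytoplasm. The median relative difference of these lists ran from -0.63 for copper genes to -0.19 for oxidative stress genes in nuclei, and from -0.49 for copper genes to 0.32 for heat-shock genes in cytoplasms.

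Genes with a pattern over the 4 columns like that of Mt1 were found by the distance between centred log2 values, a description over 4 values. The 5 nearest were Snora52, a small nucleolar RNA gene (distance 1.65), Prr15l (2.23), Rnu12, the U12 spliceosomal RNA gene (2.24), Mir1983 (2.31) and Cfd, which encodes complement factor D (2.32). Rnu12 had 1161 in the null nucleus and 13.5 in the WT nucleus. Cytoplasmic values were 4783 in null and 95.2 in WT. The other 4 were listed at 0 or at most 0.114 in both WT columns. For Mt2 the nearest were Nppc (0.12), Themis (0.16), Cnga2 (0.17), Polr2k (0.18) and D5Ertd577e (0.23).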

How the data were processed

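Per the labels, poly(A) RNA libraries were made with Smart-seq2 from 10 nuclei or cytoplasms each, 13 in all. TopHat2 2.1.1, Cufflinks 2.2.1 and mm9 appear in the submitters' processing notes, without roles or settings. The authors deposited 1 table with 4 columns, named FPKM by its title. The averaging and scaling of libraries are not given in the sources used here. The deposited values were treated as a score, since the columns share no scale.

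Columns were divided by their median ratio to the geometric mean column over kept genes above 0 in all columns (divisors 0.594 for the null nucleus, 0.279 for the WT nucleus, 1.85 for the null cytoplasm and 3.47 for the WT cytoplasm). A value of 1 was added and log2 differences of at least 2-fold were counted, with no test. Alternatives were the values as deposited, quantile normalization, equal totals, 0.1 or 5 added, no filter, and a filter on the WT columns only. The code was tried on simulated columns, drawn from genes well above 0 with few genes changed. The deposited columns differ from these, so the trial does not bear on low values or on the choice of scale. Python 3.11.15, pandas 2.3.3 and numpy 2.4.6 were used.

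The members and lists were chosen with earlier results of these data known. Named genes were all members, zinc transporters past 2-fold (up to 6 a direction) with Slc39a6 and Slc39a10, the 2 members of each other list with the highest absolute difference, cluster neighbours (not all are reported here) and the 5 most alike genes. Slc30a3, Slc39a3, Slc40a1, Ndrg1, Foxl2, Krt18 and Zbtb16 were also named, after their values were seen. Gene names and overlaps came from RefSeq (GRCm38.p6) and GENCODE M21 (GRCm38), another build than mm9.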

Additional observations from a re-analysis of the deposited data

Results flagged for a closer look

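Some genes had opposite signs of the null and WT difference in the 2 compartments, at least 2-fold apart on the relative scale. The difference between compartments was not tested for any of them. For Mt2 the nuclear difference minus the cytoplasmic difference was -2.53 (-1.82 and 0.71), and the null nucleus is listed at 0. For Mt4 it was 1.49 (0.41 and -1.08). For Slc30a4 it was -1.71 (-1.07 and 0.64). For Slc39a4 it was -1.70 (-1.36 and 0.34), with the null nucleus again listed at 0. As deposited the cytoplasmic signs of Slc30a4 and Slc39a4 flip.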

How the results depend on the processing

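Mt1 and Slc30a1 stayed at least 2-fold higher in null, in both compartments, under all 7 alternatives run, as did Slc30a2 and Slc39a1. Among differences of single members and transporters, the scale as deposited moved 88 of 100 by over 1.5-fold and turned 1 called value, that of Mt4 between null nucleus and null cytoplasm, to -0.37. Other alternatives turned none. With 5 added, 2 members, 7 transporters and 3971 of all genes were at least 2-fold different between null and WT nuclei, against 4, 12 and 5977. Quantile normalization left 4 transporters in the cytoplasm, against 7. Between nucleus and cytoplasm of WT, 6 members, 18 transporters and 13238 genes differed as deposited, against 0, 5 and 2447. With 0.1 added 2 members differed, equal totals gave 3 transporters, and 5 added gave 1 transporter and 1187 genes. In null the same comparison gave 4 members, 18 transporters and 10650 genes as deposited, against 2, 2 and 3029. There quantile normalization gave 4 transporters and equal totals 7, and 5 added gave 1 member, 0 transporters and 1630 genes. With a larger value added, low genes differ less by construction; for the scales the cause was not tested. No paired analysis was possible because the table holds 1 column per genotype and compartment, and for the same reason no library could be left out. Read depth is unknown, so that values near 0, such as those of Mt2, Mt3 and several transporters in the WT nucleus, carry no stated precision.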
